A study of Mus musculus with 6 samples.

Results

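Among the nuclei of the Foxr2 p53LOF library, 151 carried the transcripts of midbrain dopamine neurons and are called Slc6a3 neurons here. They were selected on RNA: 1000 or more UMIs (unique molecular identifiers, 1 per captured transcript), no more than 5% of these from mitochondrial genes, 3 or more UMIs of Slc6a3, and at least 0.2% of UMIs from the summed pan-neuronal genes Snap25, Syt1, Rbfox3, Celf4 and Grin2b. Slc6a3 encodes the dopamine transporter, the protein that takes dopamine back up into the cell. The Slc6a3 neurons were 1.45% of the 10379 barcodes of this library, of 22125 barcodes in the series. They were 5.46% (Clopper-Pearson 95% interval, 4.64 to 6.37) of the 2766 nuclei that met the neuron limit. The 2563 nuclei that met the same depth, mitochondrial and neuron limits and held 0 UMIs of Slc6a3, the Slc6a3-negative neurons, were the comparator.

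The study made lesions in C57BL/6J mice by in utero electroporation, in which plasmids were pulsed into progenitors of the ganglionic eminence, the ventral forebrain germinal zone of the embryo. All 3 libraries came from brain tissue of mice given Foxr2 overexpression, from a piggyBac transposon with the ubiquitous CAG promoter, beside an Akaluc and GFP reporter. Foxr2 p53LOF also received a guide with Cas9 against Trp53, and Foxr2 alone did not. Only progenitors that took up plasmid carry the vectors, so each library mixes electroporated cells and host cells of the dissected tissue. Each library was read by 10x Multiome, which gives RNA and ATAC (open chromatin) of the same nucleus. There is 1 Foxr2 p53LOF library, so no value below has a replicate. No test was made, and every interval covers counting error only.

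Dopamine neurons of the midbrain lie in the substantia nigra and the ventral tegmental area and send long axons to the striatum and cortex. They make dopamine in a chain of enzymes, in which tyrosine hydroxylase (Th) makes L-DOPA and aromatic amino acid decarboxylase (Ddc) turns it into dopamine, load it into vesicles through VMAT2 (Slc18a2), and take it back up through the dopamine transporter. A set of transcription factors, among them Nr4a2, Pitx3, Lmx1b, En1 and Foxa1, specifies and maintains them.

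By the same rule, Foxr2 alone replicate 1 held 0 Slc6a3 neurons among 5817 neurons, which allows a share of up to 0.0516%, and 9 of those neurons had a single Slc6a3 UMI. The tissue pieces taken for each library were not compared here, so genotype, animal and dissection cannot be told apart. The counts of Foxr2 alone replicate 2 (1650 barcodes) were not analysed here. The Foxr2 p53LOF library held 96929539 UMIs and 102529894 transposase cut sites in peaks. It shared 140 barcodes with Foxr2 alone replicate 1 and 34 with replicate 2. Of the 151 Slc6a3 neurons, 1 barcode also occurred in Foxr2 alone replicate 1. Trp53 gave 16.2 CPM (UMIs per 1000000 UMIs of the group) in Slc6a3 neurons and 16.2 CPM in Slc6a3-negative neurons. A guide that cuts the gene need not lower its RNA, so this level does not check the p53 label.

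The sequences that carry the chromatin findings are given first. All are RefSeq sequences of the GRCm38.p6 assembly, which has the coordinates of the mm10 build of the deposited files, and are written 5′ to 3′. Capitals mark matches to the short motifs that were searched, and a match is a description of letters only. The first is the 250 bases before the Slc6a3 start, chr13:73536497-73536746 on the plus strand. The second is the 250 bases before the Slc18a2 start, chr19:59260628-59260877 on the plus strand, and the third is the 181 bases before the En1 start that lie outside annotated UTRs, chr1:120602237-120602417 on the plus strand. These upstream stretches are shown because the peaks over them had a higher FPM (ATAC fragments per 1000000 fragments in peaks) in Slc6a3 neurons. The fourth is the 300-base centre of a peak inside Ddc, chr11:11884781-11885080 on the plus strand, which lies in an intron of Ddc and in an exon of the noncoding gene 1700042O10Rik on the other strand. The last is chr9:61808602-61808901 on the plus strand. It is the centre of the peak with the highest ratio among those with at least 20 fragments in Slc6a3 neurons.
Slc6a3 upstream: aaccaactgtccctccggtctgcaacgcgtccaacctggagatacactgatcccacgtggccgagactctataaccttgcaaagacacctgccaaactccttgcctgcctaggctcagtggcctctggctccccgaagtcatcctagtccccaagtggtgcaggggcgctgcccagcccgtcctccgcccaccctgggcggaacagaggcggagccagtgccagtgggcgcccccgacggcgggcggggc
Slc18a2 upstream: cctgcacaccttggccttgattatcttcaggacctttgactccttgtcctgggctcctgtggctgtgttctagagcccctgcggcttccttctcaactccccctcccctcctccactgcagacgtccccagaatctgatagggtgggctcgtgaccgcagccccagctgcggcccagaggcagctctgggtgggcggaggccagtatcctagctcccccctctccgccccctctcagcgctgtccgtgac
En1 upstream: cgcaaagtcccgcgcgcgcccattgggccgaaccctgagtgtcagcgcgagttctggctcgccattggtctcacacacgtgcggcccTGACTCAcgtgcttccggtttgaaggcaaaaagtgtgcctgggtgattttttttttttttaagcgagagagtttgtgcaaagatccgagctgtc
Ddc intron peak: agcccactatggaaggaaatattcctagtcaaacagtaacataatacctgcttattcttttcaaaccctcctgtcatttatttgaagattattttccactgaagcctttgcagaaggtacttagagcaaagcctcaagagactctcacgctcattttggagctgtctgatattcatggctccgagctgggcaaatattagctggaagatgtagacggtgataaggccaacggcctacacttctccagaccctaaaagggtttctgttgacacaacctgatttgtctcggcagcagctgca
Highest peak: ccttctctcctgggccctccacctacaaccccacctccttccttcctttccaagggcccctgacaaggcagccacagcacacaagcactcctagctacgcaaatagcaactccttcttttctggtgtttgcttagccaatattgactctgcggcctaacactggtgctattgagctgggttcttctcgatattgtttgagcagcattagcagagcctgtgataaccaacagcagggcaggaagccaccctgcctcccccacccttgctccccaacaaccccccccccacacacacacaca
The capitals mark an AP-1-type match (TGANTCA) in the En1 stretch, and the other stretches held no match.

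Slc6a3 ranged from 3 to 39 UMIs per Slc6a3 neuron with a median of 16. These nuclei held 2449 of the 2678 Slc6a3 UMIs of the library (91.4%). Slc6a3 was 0 by the rule in the comparator. Another 45 neurons held 1 Slc6a3 UMI and 7 held 2, and these 52 were in neither group. The UMI count fell off steeply from 0 and then formed a broad second range, as the plot of Slc6a3 UMIs per neuron shows.

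**Figure D1:**
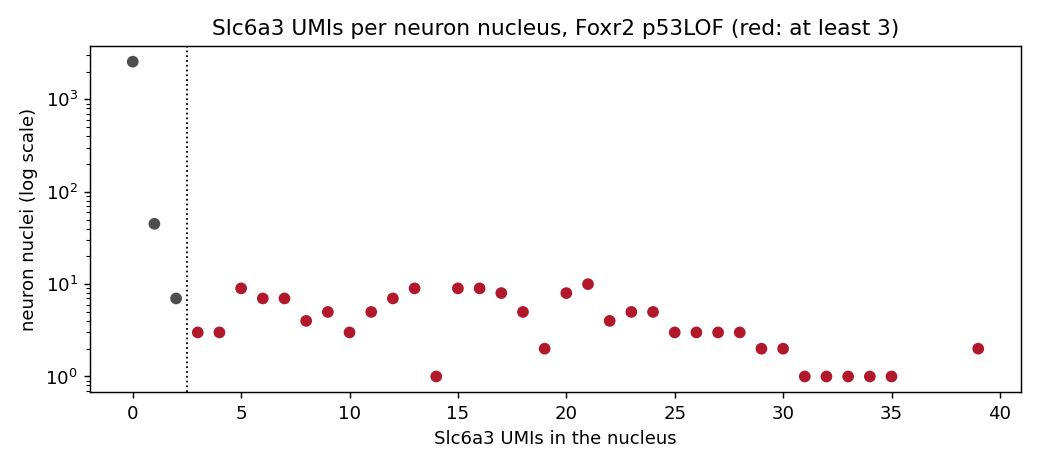
Neuron nuclei of the Foxr2 p53LOF library (log scale) by their number of Slc6a3 UMIs; each point is the number of nuclei at that count, red points are the 151 Slc6a3 neurons and the dotted line is the limit of 3 UMIs. Counts of 1 and 2 UMIs were held by 45 and 7 nuclei, and the Slc6a3 neurons reached 39 UMIs with a median of 16.

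The 5 other marker genes given with the label, Slc18a2, Ddc, Ret, Chrnb3 and Trpc6, were counted in the same nuclei. They were chosen with earlier results of these data known, so their counts describe the nuclei and do not check the label. Their summed UMIs ran from 12 to 135 per Slc6a3 neuron with a median of 55, and 112 nuclei held all 5. Every one of the 151 nuclei held at least 3 of the 5. In Slc6a3-negative neurons the median sum was 0, 1805 of 2563 nuclei held none of the 5, and 27 (1.05%) held 4 or 5 of them. Just inside the limit, the 3 nuclei with 3 Slc6a3 UMIs held 13 to 22 UMIs of the 5 genes and the 3 nuclei with 4 held 15 to 46. Just outside it, the 7 nuclei with 2 Slc6a3 UMIs held 1 to 28, and of the 45 with 1 UMI, 22 held none of the 5 and 4 held all of them. Another 8 barcodes had 3 or more Slc6a3 UMIs but missed the neuron limit. Their median UMI count was 5454.

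Depth differed between the groups. Slc6a3 neurons had a median of 17115 UMIs (4057 to 44741), 4894 genes and 5470 ATAC fragments in peaks (33 to 34522). Slc6a3-negative neurons had medians of 9846 UMIs, 3738 genes and 4673 fragments. The pan-neuronal sum, which the rule used, had a median of 0.641% of UMIs against 0.377%, and was under 0.5% in 20.5% of Slc6a3 neurons and in 76.6% of Slc6a3-negative neurons. Levels are therefore given per 1000000 summed UMIs, and shares of nuclei also after thinning each nucleus to 5000 UMIs, which left 150 Slc6a3 neurons and 2390 Slc6a3-negative neurons. Free RNA was gauged in 1994 immune nuclei of the same library, with a median of 2854 UMIs, of which 442 remained after thinning.

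The RNA values that follow describe the selected nuclei, since the selection used the RNA of these nuclei. Of 9864 genes with at least 10 CPM in either group, 428 (4.34%) were at least 2-fold higher and 817 (8.28%) at least 2-fold lower in Slc6a3 neurons, and the median log2 ratio over all of them was -0.12. Of the 428 higher genes, 163 reached the minimum only in Slc6a3 neurons, and of the 817 lower genes, 433 reached it only in the comparator. The minimum set the direction of those genes, though not the size of the difference. The lists below hold such genes too, and their counts and medians describe the genes at the minimum only.

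The 5 further markers were at least 2-fold higher (4.34% of all tested genes were), Chrnb3 with the minimum reached in Slc6a3 neurons only, and their median log2 ratio was 5.20. Slc18a2 had 0 to 54 UMIs per Slc6a3 neuron with a median of 21, and 150 of 151 nuclei held at least 1. Its level was 1223 CPM against 26.7 CPM, a log2 ratio of 5.52 (95% interval, 5.41 to 5.63). Ddc had 1 to 48 UMIs with a median of 15, and stood at 916 CPM against 24.9 CPM (log2 5.20, 5.08 to 5.32). Thinned to 5000 UMIs, Slc18a2 was found in 98.7% and Ddc in 98.0% of Slc6a3 neurons. The same shares were 5.48% and 7.57% in Slc6a3-negative neurons (8.43% and 12.0% unthinned) and 2.71% and 3.39% in immune nuclei. The counting was not stated to use strand in the sources used here, and Gm29261 and 1700042O10Rik overlap Slc18a2 and Ddc on the other strand, so a part of the UMIs could be theirs. Many genes below are likewise overlapped by another gene, among them Pitx3, Otx2, Sox6, Aldh1a1, Anxa1, Gad1, Kcnd3, Kcnj6, Pbx3, Ebf1, Ebf3, Slc32a1, Kcnn2, Oprm1, Hcrtr2, Nrp2, Sema6d, Penk and Gfra1. Ret, the signalling receptor for the survival factor GDNF, had 0 to 15 UMIs with a median of 5 (282 CPM against 17.6 CPM, log2 4.01, 3.84 to 4.17, and 4.75 with a neuron limit of 0.5%). Chrnb3, the beta3 subunit of nicotinic acetylcholine receptors, had 0 to 20 with a median of 3 (220 CPM against 4.73 CPM, log2 5.54, 5.28 to 5.82). Trpc6, a calcium-permeable channel gated by lipid signalling, had 0 to 31 with a median of 5 (371 CPM against 15.1 CPM, log2 4.62, 4.46 to 4.78), and overlaps Gm32014 on the other strand. With the neuron limit of 0.5%, the log2 ratio fell to 4.13 for Trpc6, 5.03 for Slc18a2 and 4.84 for Ddc, and was 5.72 for Chrnb3.

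**Figure D2:**
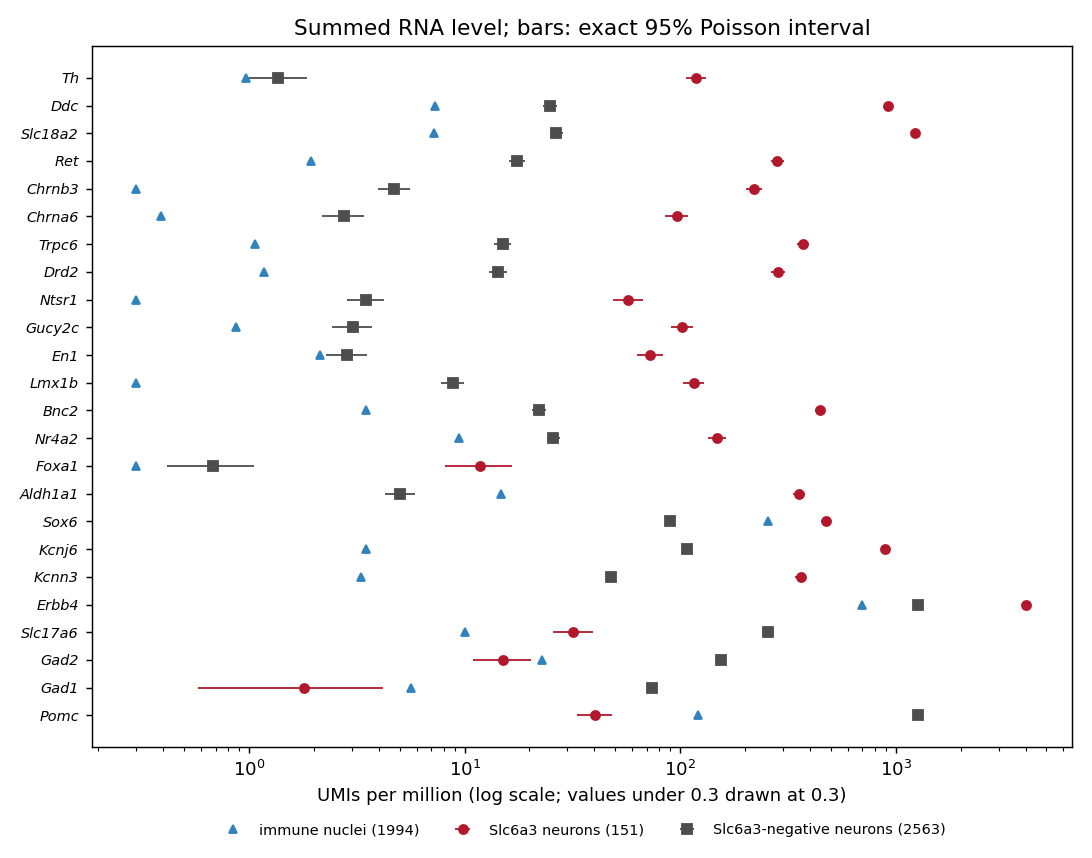
Summed RNA level in CPM (log scale) of listed genes in 151 Slc6a3 neurons (red circles), 2563 Slc6a3-negative neurons (grey squares) and 1994 immune nuclei (blue triangles), with exact 95% Poisson intervals for both neuron groups. Dopamine genes such as Th (119 against 1.36) lie far to the right in Slc6a3 neurons, whereas Slc17a6, Gad1, Gad2 and Pomc lie to the left.

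Of 14 genes of dopamine synthesis and handling, 8 reached the minimum, with a median log2 ratio of 2.65. Of these 8, none was lower and 6 were at least 2-fold higher (4.34% of all tested genes were). Of the 6, 2 (Th and Gch1) reached the minimum in Slc6a3 neurons only. Th, the rate-limiting enzyme, had 0 to 12 UMIs per Slc6a3 neuron with a median of 2. It stood at 119 CPM (106 to 132) against 1.36 CPM (0.972 to 1.85), a log2 ratio of 6.45 (5.97 to 6.96), and at 0.971 CPM in immune nuclei. With a neuron limit of 0.5% the Th log2 ratio fell to 5.92. At least 1 Th UMI was found in 125 Slc6a3 neurons (82.8%) and, after thinning to 5000 UMIs, in 49.3% (41.1 to 57.6). The same thinned share was 0.879% in Slc6a3-negative neurons and 0.679% in immune nuclei. In Slc6a3-negative neurons Th was thus near its level in immune nuclei. Gch1, which makes the first step of the cofactor that Th needs, had 0 to 5 UMIs and was found in 41 Slc6a3 neurons (20.5 CPM against 2.35 CPM, log2 3.12, 2.59 to 3.65). In immune nuclei Gch1 stood at 34.7 CPM. Of the later cofactor genes, Qdpr stood at 14.0 CPM against 12.6 CPM. Pts (8.98 CPM against 5.75 CPM) and Spr (1.80 CPM against 3.78 CPM, log2 -1.07, -2.72 to 0.19) were under the minimum.

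Of the enzymes that break dopamine down, Maoa stood at 63.2 CPM against 25.4 CPM (log2 1.31, 1.07 to 1.55). Maob, at 7.18 CPM against 5.17 CPM, stayed under the minimum. Of 12 Parkinson disease genes that reached the minimum, 2 were at least 2-fold higher (4.34% of all tested genes were). Among them was the phospholipase gene Plcg2 (44.9 CPM against 12.4 CPM), and the median log2 ratio over the 12 was 0.09. Plcg2 stood at 317 CPM in immune nuclei. The mitophagy gene Pink1 (19.7 CPM against 25.5 CPM) and the kinase gene Lrrk2 (67.5 CPM against 66.8 CPM) were within 2-fold.

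Of 15 transcription factors of dopamine neurons, 12 reached the minimum, 11 of these were at least 2-fold higher (4.34% of all tested genes were) and none was lower, with a median log2 ratio of 2.46. En1, En2, Lmx1b and Foxa1 reached it in Slc6a3 neurons only, which set their direction, and this leaves 7 higher genes with the minimum in both groups. En1, a homeodomain factor of the midbrain and anterior hindbrain, was found in 97 Slc6a3 neurons with 0 to 6 UMIs (72.5 CPM against 2.86 CPM, log2 4.67, 4.29 to 5.05, and 6.03 with a neuron limit of 0.5%). Lmx1b had 0 to 12 UMIs with a median of 2 (116 CPM against 8.81 CPM, log2 3.71, 3.47 to 3.96, and 4.32 with that limit), and its relative Lmx1a stood at 57.1 CPM against 17.5 CPM (log2 1.70, 1.44 to 1.96). Nr4a2, the nuclear receptor that switches on dopamine genes, had 0 to 14 UMIs with a median of 2 (149 CPM against 25.8 CPM, log2 2.53, 2.35 to 2.70). All 4 factors were thus above the comparator, Lmx1b and En1 by the most. Foxa1, a forkhead factor, had at most 2 UMIs in a nucleus (11.8 CPM against 0.680 CPM, log2 4.12, 3.28 to 5.0). Foxa2 and Pitx3 stayed under the minimum with 20 and 26 UMIs in all Slc6a3 neurons, against 44 and 6 UMIs in the far larger comparator. The Pitx3 level was 9.33 CPM against 0.204 CPM (log2 5.52, 4.20 to 7.09).

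Bnc2, a zinc finger factor, was found in 143 of 151 nuclei with a median of 7 UMIs (445 CPM against 22.1 CPM, log2 4.33, 4.19 to 4.47). Pbx3, a cofactor of homeodomain proteins, stood at 839 CPM against 211 CPM (log2 1.99, 1.92 to 2.06). Ebf3 was higher at 175 CPM against 70.6 CPM, whereas Ebf1 was within 2-fold at 143 CPM against 135 CPM. Otx2, which marks part of the ventral tegmental area, had 22 UMIs in 14 nuclei.

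Of 8 markers of other monoamine neurons none reached the minimum in either group, and 5 were at 0 in Slc6a3 neurons. Their sum was 10.8 CPM against 21.3 CPM, so they were low in the comparator too. Dbh, which turns dopamine into noradrenaline, and Pnmt, Slc6a2, Slc6a4 and Fev each had 0 UMIs in the Slc6a3 neurons, a level of at most 1.08 CPM by the limit of 3 counts. Tph2, the serotonin enzyme, had 7 UMIs (2.51 CPM against 9.01 CPM), and the histamine enzyme gene Hdc had 1 UMI. Slc18a1, the vesicular transporter VMAT1, had 22 UMIs in 18 nuclei (7.90 CPM against 4.39 CPM, log2 0.85, 0.12 to 1.51) and is overlapped by other genes on the other strand. Of 13 forebrain regional factors none reached the minimum, and 7 had 0 UMIs in Slc6a3 neurons, among them Emx1, Emx2 and Gsx2. Dlx1, Lhx6 and Nkx2-1, which mark derivatives of the ganglionic eminence, had 1 UMI each. The 13 factors summed to 3.23 CPM against 19.2 CPM, so they were low in the comparator too.

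All 4 tested genes for other fast transmitters were lower (8.28% of all tested genes were), Gad1 and Slc32a1 with the minimum reached in the comparator only. Slc17a6, the vesicular glutamate transporter VGLUT2, was found in 45 Slc6a3 neurons with 0 to 7 UMIs and stood at 32.0 CPM against 256 CPM (log2 -3.00, -3.32 to -2.70). Thinned, its share was 13.3% (8.34 to 19.8) in Slc6a3 neurons, 53.8% in Slc6a3-negative neurons and 2.71% in immune nuclei. Some Slc6a3 neurons therefore held Slc17a6 above the immune background. Gad1, an enzyme of GABA synthesis, had 5 UMIs in 4 nuclei (1.80 CPM against 74.4 CPM, log2 -5.37, -7.0 to -4.15), under its 5.63 CPM in immune nuclei. Gad2 stood at 15.1 CPM against 155 CPM (log2 -3.36, -3.83 to -2.92, and -2.50 with a minimum of 2 Slc6a3 UMIs) and at 22.9 CPM in immune nuclei. The share of nuclei with a Gad2 UMI was 11.3% in Slc6a3 neurons and 4.76% in immune nuclei unthinned, and 5.33% (2.33 to 10.2) and 8.37% (5.96 to 11.4) thinned, so its order against the background depended on the depth. Slc32a1, the vesicular GABA transporter, stood at 5.74 CPM against 27.2 CPM.

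The 2 main kinds of Slc6a3-negative neurons were set beside the Slc6a3 neurons: 990 with at least 3 Slc17a6 UMIs and no Gad UMI, and 641 with at least 3 Gad UMIs and no Slc17a6 UMI. Th stood at 0.772 CPM and 0.907 CPM in them, Ddc at 17.3 CPM and 13.1 CPM, and Slc18a2 at 17.1 CPM and 6.48 CPM. Lmx1b was 10.4 CPM in the Slc17a6 neurons and 2.07 CPM in the GABA neurons, and En1 was 1.63 CPM and 3.63 CPM. Neither kind came near the 119, 916, 1223, 116 and 72.5 CPM of these genes in Slc6a3 neurons.

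Among receptors for growth factors, 1 of 8 tested genes was lower and 3 were higher (8.28% and 4.34% of all tested genes were). Besides Ret, these were its GDNF-binding partner Gfra1 (0 to 26 UMIs, median 3, 260 CPM against 50.9 CPM, log2 2.35, 2.22 to 2.48) and Erbb4, a neuregulin receptor, which ran from 3 to 223 UMIs per nucleus with a median of 67 (4028 CPM against 1275 CPM, log2 1.66, 1.63 to 1.69). Erbb4 was present in every Slc6a3 neuron, but also stood at 695 CPM in immune nuclei. The other neurturin and neurotrophin receptors Gfra2 (18.0 CPM against 28.6 CPM), Ntrk2 (343 CPM against 341 CPM) and Ntrk3 (270 CPM against 485 CPM) were within 2-fold. Egfr was lower at 15.8 CPM against 39.5 CPM, and 38 of its 44 UMIs came from 1 nucleus.

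Of 9 nicotinic subunits, 7 reached the minimum and 5 were higher (4.34% of all tested genes were). Of these 5, 4 (Chrnb3, Chrna3, Chrna5 and Chrna6) reached it in Slc6a3 neurons only, which set their direction, so only Chrna4 was higher with the minimum in both groups. Chrna6, which assembles with the beta3 subunit on dopamine terminals, was found in 101 nuclei with 0 to 7 UMIs (96.6 CPM against 2.76 CPM, log2 5.13, 4.77 to 5.51). Chrna3 (12.9 CPM against 2.11 CPM), Chrna4 (40.2 CPM against 14.9 CPM) and Chrna5 (16.2 CPM against 5.24 CPM) were higher by less. Chrnb2, the partner of alpha4 in much of the brain, was within 2-fold (15.1 CPM against 14.4 CPM, log2 0.07, -0.43 to 0.53), and Chrnb4 had 0 UMIs.

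The family of Trpc6 varied: of 6 TRPC genes tested Trpc6 alone was at least 2-fold higher and 3 were lower. Of these 3, 1 reached the minimum in the comparator only, and the others were Trpc5 (48.1 CPM against 117 CPM) and Trpc7 (10.1 CPM against 30.5 CPM). Trpc1 (log2 -0.15, -0.35 to 0.04) and Trpc4 (log2 0.60, 0.42 to 0.78) were within 2-fold. Of 16 tested channels of pacemaking and excitability, 5 were higher, 1 of them (Kcns3) with the minimum in Slc6a3 neurons only, and 3 lower. Over all tested genes, 4.34% were higher and 8.28% lower. Kcnj6, the GIRK2 channel through which dopamine autoreceptors inhibit firing, had 0 to 68 UMIs with a median of 12 (889 CPM against 108 CPM, log2 3.04, 2.96 to 3.12, and 2.87 with a neuron limit of 0.5%). Kcnn3, the small-conductance calcium-activated channel SK3, had 0 to 26 with a median of 5 (362 CPM against 47.8 CPM, log2 2.92, 2.80 to 3.04). Kcnd3, the A-type channel Kv4.3, had 1 to 72 with a median of 16 (1053 CPM against 163 CPM, log2 2.69, 2.62 to 2.76). At least 1 UMI of each of these potassium channels was found in 142 to 151 of the 151 nuclei, unthinned. The unthinned shares in the shallower Slc6a3-negative neurons were 55.6%, 31.4% and 58.9%, and Kcnd3 stood at 52.6 CPM in immune nuclei. Kcns3, a silent potassium subunit, stood at 79.0 CPM against 5.03 CPM and Kcnip3 at 61.8 CPM against 30.3 CPM. Among the lower genes were Kcnj9 (12.6 CPM against 39.5 CPM) and Kcnn2 (119 CPM against 279 CPM). The L-type calcium channel genes Cacna1c (527 CPM against 632 CPM) and Cacna1d (501 CPM against 363 CPM) and the leak channel gene Nalcn (490 CPM against 593 CPM) were within 2-fold.

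Of 9 tested receptors for dopamine and neuropeptides, 6 were higher and 3 lower (4.34% and 8.28% of all tested genes were). Gucy2c and Ntsr1 reached the minimum in Slc6a3 neurons only and Oprm1 in the comparator only. Drd2, the inhibitory autoreceptor, had 0 to 23 UMIs with a median of 5 in 135 nuclei (284 CPM against 14.3 CPM, log2 4.31, 4.14 to 4.49), whereas Drd1 had 2 UMIs and Drd3 4 UMIs. Gucy2c, a guanylyl cyclase receptor, had 0 to 9 UMIs in 99 nuclei (102 CPM against 3.03 CPM, log2 5.07, 4.73 to 5.43). Ntsr1, the neurotensin receptor, stood at 57.4 CPM against 3.50 CPM (log2 4.04, 3.67 to 4.41), and Oprk1, the kappa opioid receptor, at 160 CPM against 20.8 CPM (log2 2.94, 2.76 to 3.12). Tacr3 and Crhr1 were higher as well. Lower were the mu opioid receptor Oprm1 (7.18 CPM against 55.2 CPM, log2 -2.94, -3.66 to -2.31), the serotonin receptor Htr2c (90.1 CPM against 651 CPM, log2 -2.85, -3.04 to -2.67) and the orexin receptor Hcrtr2. Kappa and mu opioid receptors thus differed from the comparator in opposite directions.

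Of 8 tested neuropeptides 6 were lower (8.28% of all tested genes were). Of these 6, 5 reached the minimum in the comparator only, which set their direction, so Pomc alone was lower with the minimum in both groups. Cck (23.0 CPM against 10.4 CPM) and Grp (10.1 CPM against 1.90 CPM) were higher, Grp with the minimum in Slc6a3 neurons only. Pomc stood at 40.2 CPM against 1264 CPM (log2 -4.97, -5.26 to -4.71) and at 121 CPM in immune nuclei, and its share of nuclei after thinning was 16.0% in Slc6a3 neurons, 23.1% in Slc6a3-negative neurons and 30.1% in immune nuclei. Unthinned, these shares were 44.4%, 39.3% and 33.3%. Pomc stood at 63.1 CPM in the Slc17a6 neurons and 261 CPM in the GABA neurons of the comparator. They held 736 and 2018 of its 37163 Pomc UMIs, so most were in its other nuclei. The Pomc log2 ratio was -3.85 against Slc6a3-negative neurons between the 10th and 90th percentile of the UMIs of the Slc6a3 neurons (median 12892 UMIs against 17115), and -3.98 with the limits of the study on genes, UMIs and fragments. Tac1 (2 UMIs), Sst (3 UMIs), Cartpt (7 UMIs), Penk (11 UMIs) and Adcyap1 (15 UMIs) were the 5 that reached the minimum in the comparator only.

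Of 18 axon guidance genes, all of which reached the minimum, 3 were higher and 5 lower (4.34% and 8.28% of all tested genes were). Of the lower genes, 1 reached the minimum in the comparator only. Ntn1, the guidance cue netrin-1, had 0 to 24 UMIs with a median of 4 in 140 nuclei (234 CPM against 18.9 CPM, log2 3.63, 3.47 to 3.80). Its receptor Dcc ran from 8 to 168 UMIs per nucleus with a median of 52 and was within 2-fold (3011 CPM against 1839 CPM, log2 0.71, 0.68 to 0.74). Robo2 (1541 CPM against 624 CPM) and Sema6d (1294 CPM against 449 CPM) were higher. The semaphorin receptors Nrp1 (23.0 CPM against 122 CPM) and Nrp2 (23.7 CPM against 107 CPM) and the netrin receptor Unc5d (137 CPM against 609 CPM) were lower, with Slit3 and Sema3c. Of 5 tested genes of axon injury and stress none was higher and 2 were lower (4.34% and 8.28% of all tested genes were). Both lower genes reached the minimum in the comparator only, which set their direction. Gap43, a growth cone protein, stood at 238 CPM against 148 CPM, while the immediate early gene Fos stood at 6.10 CPM against 14.3 CPM and Atf3 had 4 UMIs. Of 11 tested interferon and MHC class I genes none was higher and 3 were lower (8.28% of all tested genes were). Of these 3, 2 reached the minimum in the comparator only.

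Outside the lists, the gene with the highest ratio of all was Slc10a4, a transporter-like protein of monoaminergic and cholinergic vesicles, with 0 to 9 UMIs per nucleus in 121 nuclei (101 CPM against 0.952 CPM, log2 6.73, 6.17 to 7.35). Others among the 20 highest were Tmem207 (18.0 CPM against 0.374 CPM), the neurotrophin Ntf3 (53.1 CPM against 1.60 CPM), the growth factor Fgf20 (15.1 CPM against 0.544 CPM), Cyyr1 (49.9 CPM against 1.80 CPM), the acyltransferase Mboat1 (73.6 CPM against 2.93 CPM) and the predicted genes Gm31641, which overlaps another gene on its own strand, and Gm11884. Mboat1 stood at 51.8 CPM in 2102 oligodendrocyte nuclei. Among the 15 lowest were the collagen gene Col19a1 (1.08 CPM against 68.9 CPM, 3 UMIs), the T-type calcium channel gene Cacna1i (1.44 CPM against 35.2 CPM), the nitric oxide synthase Nos1 (1.08 CPM against 26.0 CPM, 3 UMIs), Arpp21 (25.1 CPM against 475 CPM, log2 -4.24, -4.60 to -3.90), Sim1, a hypothalamic factor (1 UMI against 28.0 CPM), and Gata3, a factor of midbrain and hindbrain GABA neurons, which was at 0 UMIs and at least 18.1-fold lower than its 19.5 CPM in the comparator.

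Levels over the neurons with 0, 1, 2, 3 to 5, 6 to 10 and over 10 Slc6a3 UMIs were also set side by side, as a description. From the first to the last of these 6 groups, Slc10a4, Th, Aldh1a1, Chrnb3 and Slc18a2 had the largest differences, 5.53 to 6.71 on the log2 scale, followed by Gucy2c, Ddc, Chrna6, Cyyr1 and Ntf3. Th stood at 1.36, 17.2, 57.2, 68.6, 150 and 117 CPM in these groups. Slc18a2 stood at 26.7, 177, 448, 985, 1251 and 1235 CPM. Both were already above the Slc6a3-negative level at 1 UMI and were level from 6 UMIs on.

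Within the midbrain, ventral tier neurons of the substantia nigra are marked by Sox6 and Aldh1a1, and neurons of the dorsal tier and ventral tegmental area by Calb1, with Otx2 and Slc17a6 in part of them. All of these occurred in the Slc6a3 neurons. Sox6 had 0 to 90 UMIs per nucleus with a median of 4, in 102 nuclei (473 CPM against 89.6 CPM, log2 2.40, 2.30 to 2.50), and stood at 255 CPM in immune and 825 CPM in oligodendrocyte nuclei. Aldh1a1, a retinaldehyde dehydrogenase, had 0 to 42 with a median of 1, in 79 nuclei (356 CPM against 5.03 CPM, log2 6.14, 5.89 to 6.40). Calb1, a calcium buffer, had 0 to 16 UMIs in 71 nuclei (83.7 CPM against 29.8 CPM, log2 1.49, 1.27 to 1.70). Of 8 ventral tier genes tested 6 were higher (4.34% of all tested genes were), 4 of them with the minimum in Slc6a3 neurons only. Of 8 dorsal tier and ventral tegmental genes tested 5 were higher, 2 of them with the minimum in Slc6a3 neurons only, and 2 lower (8.28% of all tested genes were).

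Sox6 and Calb1 were found together in 35 nuclei, Sox6 without Calb1 in 67, Calb1 without Sox6 in 36 and neither in 13. Aldh1a1 and Calb1 occurred together in 26 nuclei, Aldh1a1 without Calb1 in 53 and Calb1 without Aldh1a1 in 45. Anxa1, a marker of a subset of Aldh1a1 neurons, was found in 24 nuclei, all of which also held Aldh1a1. Of the 45 nuclei with Slc17a6, 30 held Calb1, 26 held Aldh1a1 and 10 held Otx2. High Sox6 and high Calb1 seldom met in a nucleus, as the plot of tier genes per nucleus shows, and low counts of either gene also occurred together.

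**Figure D3:**
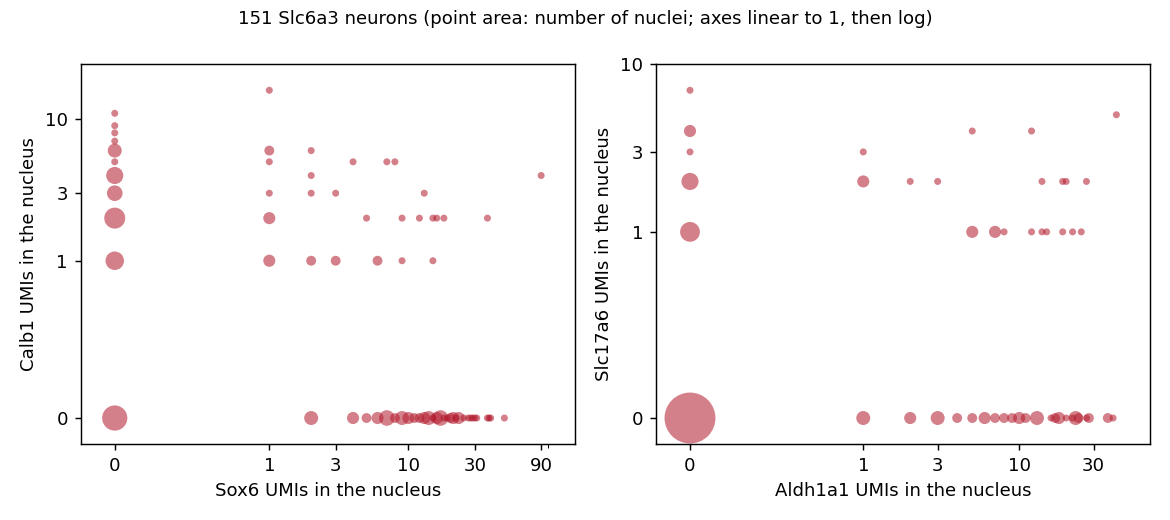
UMIs per nucleus in the 151 Slc6a3 neurons, with Sox6 against Calb1 on the left and Aldh1a1 against Slc17a6 on the right; axes are linear up to 1 and logarithmic above, and the area of a point is the number of nuclei. Most nuclei lie along the axes: 67 held Sox6 without Calb1, 36 Calb1 without Sox6, 53 Aldh1a1 without Slc17a6, and 53 neither of the latter pair.

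Split by the summed UMIs of the 2 lists, 98 nuclei (64.9%) held more of the ventral tier list, 50 more of the dorsal tier and ventral tegmental list, and 3 were tied. Over all Slc6a3 neurons the ventral list summed to 1280 CPM and the other to 285 CPM, so raw sums lean to the ventral list. The 64.9% is therefore not a share of ventral tier neurons. The split is a cut on a count and was not tested as a pair of types: 21 nuclei had sums within 2 UMIs of each other, some of them with few UMIs of either list. Median depth was 18434 UMIs in the ventral-leaning and 14367 in the dorsal-leaning nuclei. Outside the lists, Kcnj6 stood at 1079 CPM in the ventral-leaning and 399 CPM in the dorsal-leaning nuclei (log2 1.43, 1.26 to 1.61), and Lmx1a at 42.5 CPM and 93.9 CPM (log2 -1.14, -1.61 to -0.67). Of the shared dopamine genes, Ddc was 923 CPM and 864 CPM (log2 0.10, -0.03 to 0.23) and Slc18a2 1195 CPM and 1276 CPM (log2 -0.09, -0.20 to 0.01). Th at 107 CPM and 153 CPM (log2 -0.51, -0.85 to -0.18) and Ret at 253 CPM and 347 CPM (log2 -0.46, -0.68 to -0.24) differed by more than counting error, within 2-fold. Genes with the largest differences were Pex5l (1916 CPM and 368 CPM), Satb1 (333 CPM and 79.6 CPM) and Lix1 (339 CPM and 83.5 CPM) on the ventral side. On the dorsal side were the protocadherin Pcdh11x (9.11 CPM and 133 CPM), Shisa6 (16.7 CPM and 198 CPM), Sema5b (11.6 CPM and 112 CPM), Fgf10 (6.58 CPM and 54.8 CPM) and Postn, with 1 UMI and 56 UMIs.

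Foxr2 and the GFP reporter were, per UMI, at or under their level in Slc6a3-negative neurons. The sequences that the study lists as added to the mouse genome do not include Foxr2. Foxr2 UMIs of the vector and of the native gene were therefore not told apart. Foxr2 had 32 UMIs in 23 of 151 nuclei, 11.5 CPM (7.86 to 16.2) against 14.7 CPM (13.4 to 16.2) in Slc6a3-negative neurons, a log2 ratio of -0.36 (-0.92 to 0.16), and 32.2 CPM in immune and 45.5 CPM in oligodendrocyte nuclei. Per nucleus this was 0.212 UMIs in Slc6a3 neurons, 0.169 in Slc6a3-negative neurons, 0.166 in immune and 0.237 in oligodendrocyte nuclei. Thinned to 5000 UMIs, 6.00% (2.78 to 11.1) of Slc6a3 neurons held Foxr2, against 7.15% of Slc6a3-negative neurons and 13.6% of immune nuclei. The unthinned shares were 15.2%, 13.9% and 11.5%. Against immune nuclei, which should lack the vector, Foxr2 in Slc6a3 neurons was thus lower per UMI and somewhat higher per nucleus, and the thinned immune share rests on the 442 deepest of 1994 nuclei. GFP stood at 71.1 CPM against 99.8 CPM (log2 -0.49, -0.70 to -0.28) and at 249 CPM in immune nuclei. Per nucleus the GFP order differed, with 1.31 UMIs in Slc6a3 neurons, 1.14 in Slc6a3-negative neurons and 1.28 in immune nuclei, and 54.3%, 55.6% and 46.9% of these nuclei held a GFP UMI. ATAC fragments in the vector peaks were found in 3 Slc6a3 neurons (1.99%), 2.03% of Slc6a3-negative neurons, 2.66% of immune and 6.61% of oligodendrocyte nuclei.

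Markers of other cell types were counted in the same nuclei. The 8 immune markers summed to 61.4 CPM against 154 CPM (0 to 34 UMIs per Slc6a3 neuron, median 0), and the 8 oligodendrocyte markers to 315 CPM against 543 CPM (0 to 96, median 2). The 8 markers of oligodendrocyte precursors and tumor glia summed to 79.0 CPM against 80.0 CPM (0 to 18, median 1), and the 8 astrocyte markers to 344 CPM against 282 CPM (0 to 196, median 4). Of the astrocyte markers, Slc1a2, a glutamate transporter, was at least 2-fold higher (205 CPM against 91.3 CPM, log2 1.17, 1.04 to 1.30). None of these markers was at 0, and their part in any difference above was not tested. Without the nuclei that a doublet caller marked, 6 Slc6a3 neurons and 210 Slc6a3-negative neurons, the median log2 ratio was 2.81 for the synthesis genes and 2.61 for the transcription factors. Aldh1a1 moved the most without them, from a log2 ratio of 6.14 to 6.75. Of the 5 pan-neuronal genes of the rule, Syt1, which Gm5136 overlaps on the same strand, was higher (3851 CPM against 1801 CPM) and the other 4 were within 2-fold.

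Open chromatin was not used to select the nuclei. Fragments were summed over the nuclei of a group, 812719 in Slc6a3 neurons and 11949540 in Slc6a3-negative neurons, and scaled to FPM (fragments per 1000000 fragments in peaks). Most peaks had few fragments in 151 nuclei, so intervals are wide. Of 14160 peaks with at least 20 FPM in either group, 656 (4.63%) were at least 2-fold higher and 242 (1.71%) at least 2-fold lower in Slc6a3 neurons. Of the 656, 649 reached the minimum only in Slc6a3 neurons, where the median was 20 fragments, so the minimum set their direction. With a minimum of 50 FPM, 3 peaks were higher and 17 lower. A neuron limit of 0.5% gave 1297 higher and 564 lower, and the limits of the study on genes, UMIs and fragments gave 1041 and 305. Peaks were called by the authors on the whole library, in which these nuclei were 1.45% of barcodes, so peaks of this type alone may be missing.

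The peak at the Slc6a3 start, chr13:73536226-73537123, held 14 fragments in Slc6a3 neurons and 29 in Slc6a3-negative neurons, 17.2 against 2.43 FPM (log2 2.83, 1.79 to 3.79). The peak at the Slc18a2 start, chr19:59260655-59261454, held 22 fragments in 18 nuclei and 57 fragments in the comparator (log2 2.50, 1.72 to 3.24). The peak at the Slc6a3 start was under the minimum of 20 FPM in both groups and so is not among the tested peaks, and its ratio rests on 14 fragments. The 3 promoter peaks of Ddc held 39 and 192 fragments (log2 1.58, 1.04 to 2.08), and the Ddc intron peak, chr11:11884497-11885365, held 27 and 63 (log2 2.66, 1.95 to 3.33). The promoter of Ret was 30.8 against 16.5 FPM (log2 0.90, 0.24 to 1.5).

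Th had no peak within 1 kb of an annotated start. The 5 peaks in its annotated gene body held 44 and 425 fragments (log2 0.61, 0.12 to 1.06), and 1 of them, chr7:142918957-142919840, was past 2-fold with 24 and 165 fragments (log2 1.10, 0.41 to 1.72). That peak lies upstream of a RefSeq Th start, which chr7:142900015-142900245 precedes on the minus strand. It counts as gene body because the GENCODE gene extends to base 142931128. Chrnb3, Trpc6 and Anxa1 had no peak at their start or in their body. So the gene with the second highest RNA ratio of the tested genes could not be read at its start in these peaks.

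**Figure D4:**
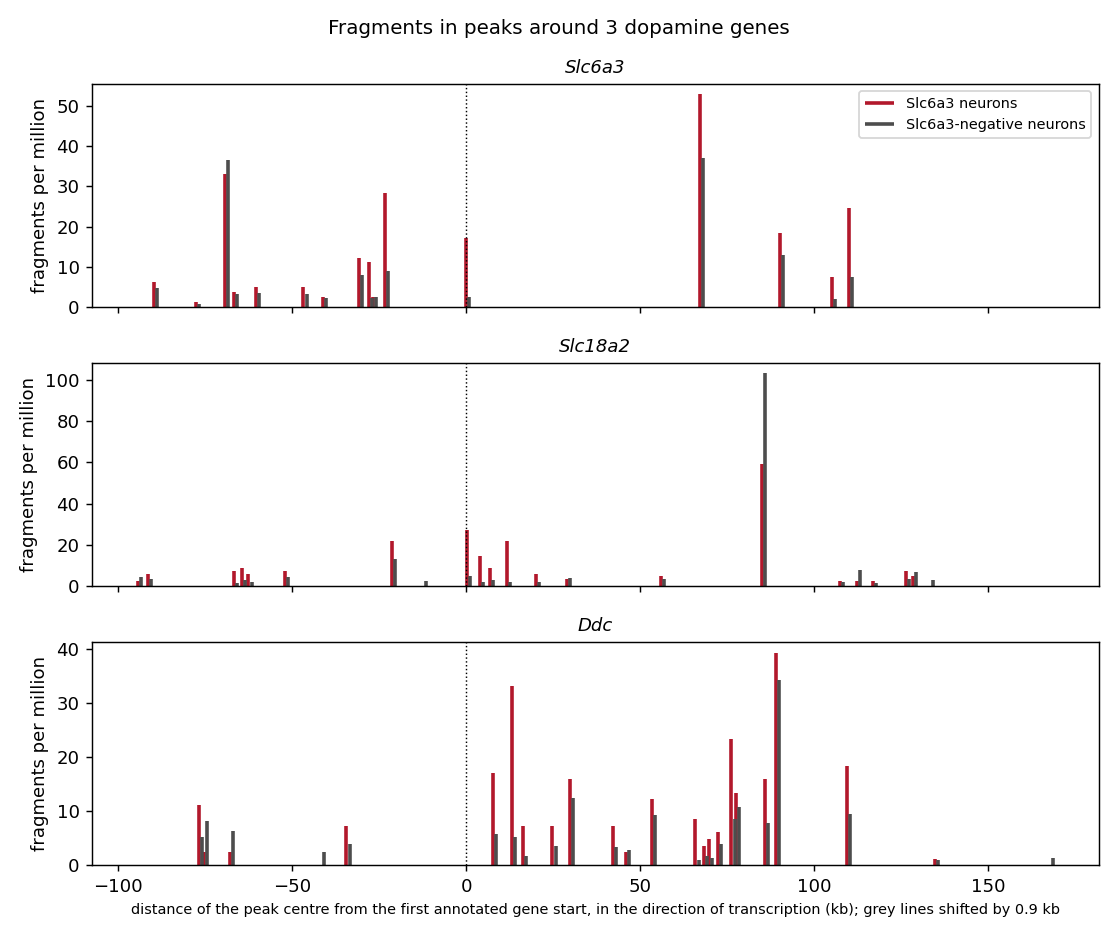
FPM in the peaks around Slc6a3, Slc18a2 and Ddc, in Slc6a3 neurons (red) and Slc6a3-negative neurons (grey, shifted by 0.9 kb), against the distance of the peak centre from the first annotated gene start in kb along the direction of transcription. The start of Slc6a3 (17.2 against 2.43 FPM) and the start of Slc18a2 stand above the grey lines, while many neighbouring peaks are of similar height in both groups.

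Around the transcription factor genes, 18 of 44 tested peaks (40.9%, beside 4.63% of all) were higher and none was lower, and around the synthesis and handling genes 8 of 36 (22.2%). As nearly all higher peaks entered through Slc6a3 neurons alone, and 17 of the 44 lie outside promoters, where 17.9% of all tested peaks were higher, these counts were repeated over peaks with at least 5 FPM in both groups together, a setting chosen after the data were seen. Then 39 of 124 peaks around the transcription factor genes were higher (31.5%, 23.4 to 40.4) and 12 of 103 around the synthesis and handling genes (11.7%, 6.17 to 19.5), beside 4.99% of all 47859 peaks. Outside promoters it was 28 of 87 (32.2%) and 6 of 54 (11.1%), beside 6.74% of all. The En1 start held 38 fragments in 33 nuclei and 96 in the comparator (log2 2.54, 1.96 to 3.10). The 3 Pitx3 promoter peaks held 73 and 232 fragments (log2 2.21, 1.81 to 2.60), although Pitx3 RNA was found in 23 nuclei only. Bnc2 promoters held 44 and 159 (log2 2.02, 1.51 to 2.51), the Foxa1 promoter 21 and 97 (log2 1.67, 0.92 to 2.36), En2 31 and 153 (log2 1.57, 0.97 to 2.14), and Nr4a2 56 and 393 (log2 1.07, 0.64 to 1.47). A peak 11829 bases past the Foxa1 start, chr12:57534698-57535477, held 31 and 48 fragments (log2 3.25, 2.55 to 3.93). Thus factors with low RNA counts, Pitx3 and Foxa1, still had more open chromatin around their genes. Pbx3 (log2 0.11, -0.32 to 0.50) and Ebf1 (log2 -0.39, -1.32 to 0.41) promoters were within 2-fold. Summed over the 42 promoter peaks of the synthesis and transcription factor lists, Slc6a3 neurons held 792 and Slc6a3-negative neurons 6969 fragments, 975 against 583 FPM (log2 0.74, 0.63 to 0.85).

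The promoters of other listed genes varied. The promoter of Aldh1a1, under the minimum with 6.15 against 0.837 FPM, held 5 and 10 fragments (log2 2.88, 0.98 to 4.56). The promoter of the autoreceptor Drd2 held 20 and 138 (log2 1.09, 0.34 to 1.77), that of Oprk1 22 and 92 (log2 1.81, 1.07 to 2.50) and that of Erbb4 21 and 117 (log2 1.40, 0.66 to 2.08). For genes with lower RNA, the promoter of Gad2, summed over its peaks, had 11.1 against 22.5 FPM (log2 -1.02, -2.17 to -0.08), just past 2-fold, and that of Slc17a6 was within 2-fold at 18.5 against 34.7 FPM (log2 -0.91, -1.76 to -0.17). The promoters of Slc32a1 (7.38 against 18.4 FPM, log2 -1.32, -2.78 to -0.17) and Htr2c (3.69 against 12.8 FPM, 3 fragments, log2 -1.79, -4.09 to -0.22) were under the minimum in both groups. Promoters of some genes with higher RNA had intervals that included 0: Kcnj6 held 24 and 298 fragments (log2 0.24, -0.42 to 0.85), Kcnn3 27 and 287 (log2 0.47, -0.16 to 1.04) and Chrna4 22 and 273 (log2 0.24, -0.45 to 0.87). In both directions the promoter ratio was smaller than the RNA ratio for these genes.

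**Figure D5:**
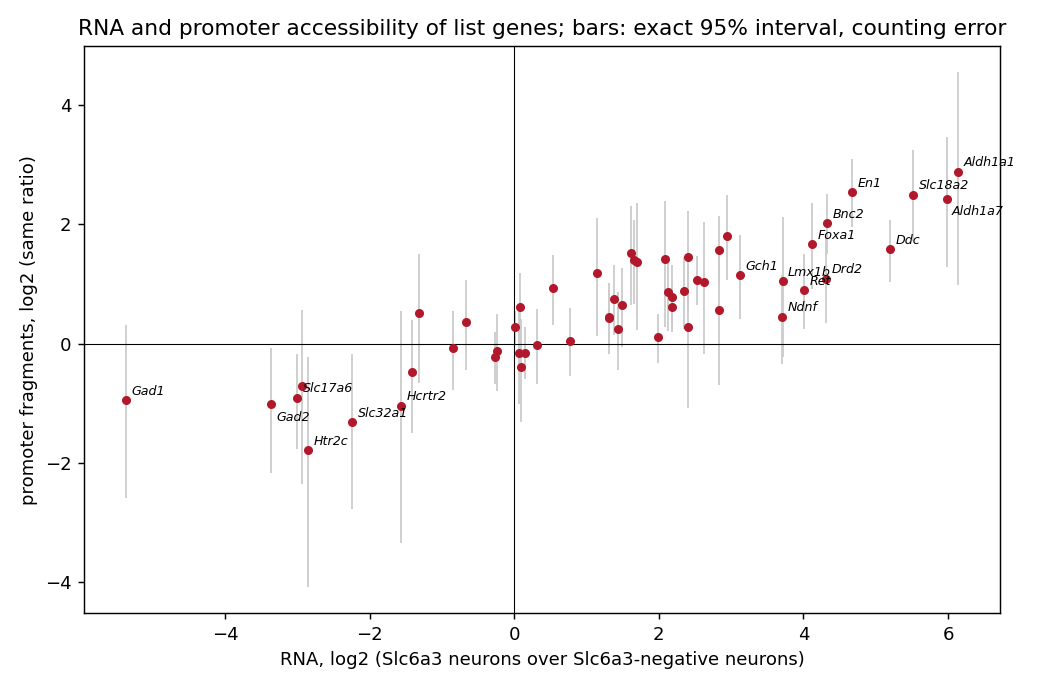
Log2 ratio of promoter fragments (vertical, with exact 95% intervals for counting error) against log2 ratio of RNA (horizontal), Slc6a3 neurons over Slc6a3-negative neurons, for genes of the dopamine, receptor, tier and transmitter lists with at least 3 promoter fragments in Slc6a3 neurons and RNA at the minimum. Aldh1a1, En1 and Slc18a2 lie at the upper right (promoter log2 2.88, on 5 fragments, 2.54 and 2.50), and Gad1, Gad2, Slc17a6 and Htr2c at the lower left.

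Over all 8701 genes with RNA and promoter at their minimums, 48 (0.552%) had promoters at least 2-fold higher and the median promoter log2 ratio was -0.02. Of 284 genes with higher RNA, 35 promoters were past 2-fold (12.3%) and the median was 0.30. Of 79 genes with RNA at least 4-fold higher, 28 were past it (35.4%) and the median was 0.78. Of 470 genes with lower RNA none had a promoter at least 2-fold higher, 90 (19.1%) had a promoter log2 ratio above 0, and the median was -0.32. Promoters at least 2-fold lower were not counted. RNA and ATAC were read from the same nuclei and library, so these shares are a description of 1 library. Among all peaks, 649 of the 656 higher ones reached their minimum in Slc6a3 neurons only. The promoter shares were not recounted with another minimum.

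Of the 656 higher peaks, 134 (20.4%) were promoter peaks, compared with 79.4% of all tested peaks and 58.3% of the 242 lower peaks. Since 649 of the 656 entered through Slc6a3 neurons alone, which lets in weaker peaks, the location was recounted over all peaks with at least 5 FPM in both groups together, a setting chosen after the data were seen. Promoter peaks were then 16.7% (15.2 to 18.3) of 2387 higher peaks, 40.6% (40.1 to 41.1) of 42125 peaks within 2-fold and 25.9% (24.5 to 27.5) of 3347 lower peaks. Both sets past 2-fold thus held fewer promoter peaks than the set between them, and the contrast was smaller than with the first minimum. Median fragments in Slc6a3 neurons were 13 in higher peaks, 9 in peaks within 2-fold and 3 in lower peaks. Weak peaks pass 2-fold more easily by counting error in either direction, so the recount cannot separate location from peak strength. Where the nearest gene had RNA at the minimum, it was at least 2-fold higher in RNA for 26.5% of higher peaks and for 3.81% of all tested peaks, or, by the recount, for 19.4% of higher peaks and 4.42% of those within 2-fold. For lower peaks the nearest gene was lower in RNA for 41.5%, against 5.34%, or, by the recount, for 27.2% against 9.51%. Among peaks with at least 20 fragments in Slc6a3 neurons, chr9:61808351-61809154, whose centre is given above, had the highest ratio. It lies 105790 bases from the start of Rplp1 and overlaps the noncoding gene Gm34828 in RefSeq. It held 33 fragments in 30 of 151 nuclei and 26 fragments in the 2563 Slc6a3-negative neurons (log2 4.22, 3.44 to 5.02). The next were chr6:145654049-145654901 between genes near Tuba3b (23 and 20 fragments, log2 4.08, 3.15 to 5.02) and chr16:22411836-22412514 within Etv5 (26 and 27, log2 3.82, 2.99 to 4.66). Each of these 3 peaks was found in 12.6% to 19.9% of Slc6a3 neurons and in at most 1.05% of the comparator.

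A set of 9 short motifs were searched on both strands in the 300 bases at the centre of each peak: AAAGGTCA (NBRE, the site that the Nr4a family of nuclear receptors binds as a monomer), TAATTA (homeodomain), TAATCC (bicoid-type homeodomain), TGTTTAC (forkhead), ACAATG (SOX), CCCNNGGG (EBF), TGATTGAT (PBX), CAGATG (E-box) and TGANTCA (AP-1). The NBRE letters were in 40 of 522 higher peaks outside promoters (7.66%, 5.53 to 10.3) and in 2.61% (2.06 to 3.25) of the 2913 such peaks tested. Over all positions they were in 7.32% of the 656 higher peaks, 1.24% of the 242 lower peaks, 0.940% of 14156 tested peaks and 1.34% of 32851 stretches of 250 bases upstream of RefSeq starts. The forkhead letters were in 9.0% (6.69 to 11.8) of higher peaks outside promoters and in 4.57% (3.84 to 5.39) of those tested. The higher and tested sets outside promoters had mean GC contents of 50.9% and 55.8%.

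The motif shares were recounted with the same minimum of 5 FPM over both groups, in peaks outside promoters. The NBRE letters were then in 83 of 1988 higher peaks (4.18%, 3.34 to 5.15), in 1.23% (1.10 to 1.38) of 25000 peaks within 2-fold and in 1.09% (0.721 to 1.59) of 2472 lower peaks, with GC contents of 49.9%, 51.1% and 51.4%. The forkhead letters were in 7.55% (6.42 to 8.80), 4.06% and 3.32% of them. The bicoid-type letters were in 9.21% (7.97 to 10.6), 7.77% and 7.0%. The other 6 motifs differed little or were less frequent in higher peaks: homeodomain 5.28%, 5.55% and 6.35%, SOX 13.7%, 14.6% and 13.6%, EBF 10.9%, 10.8% and 9.30%, PBX 0.553%, 0.632% and 0.688%, E-box 26.2%, 26.0% and 26.7%, and AP-1 14.3%, 15.7% and 17.7%. For the NBRE and forkhead letters, the interval in higher peaks lay above the share in peaks within 2-fold. For the bicoid-type letters, the interval in higher peaks overlapped that in peaks within 2-fold (7.44 to 8.11). RNA of Nr4a2, a factor known to bind such letters, and of the forkhead factor Foxa1 was higher in the same nuclei, as given above. Whether either factor was bound was not measured.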

How the data were processed

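Nuclei of frozen brain tissue were read by 10x Multiome in 1 Foxr2 p53LOF and 2 Foxr2 alone libraries. The authors made the deposited counts with Cell Ranger ARC 2.0.0 at default settings against mm10 with the vector sequences added: whole-number UMI counts per gene and transposase cut-site counts per peak. The peaks were called by the authors on each whole library. Cut-site counts were divided by 2 and rounded up to give fragments, since 80.7% of the nonzero peak counts were even.

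The Slc6a3 neurons and the gene lists were chosen with earlier results of these data known. UMIs and fragments were summed over the nuclei of a group, because nuclei of 1 library are not replicates, and no test was made. Levels have exact Poisson 95% intervals, log2 ratios exact conditional binomial intervals and shares Clopper-Pearson intervals. The calculations were tested on simulated data. Genes needed at least 10 CPM, and peaks at least 20 FPM, in either group, and 2-fold was the limit for higher or lower. A count of 0 was read as at most 3 counts. Immune nuclei had at least 0.2% of UMIs from immune markers, oligodendrocyte nuclei at least 0.5% from their markers, and both under 0.1% from pan-neuronal genes. Promoter peaks lay within 1 kb of a start in GENCODE M21. Genes were named from the lists, from the 20 highest and 15 lowest log2 ratios, from the 10 genes that differed most over the Slc6a3 UMI groups, and from the 10 highest peaks with at least 20 fragments in Slc6a3 neurons. Some genes of the lists and some peaks are not reported here, though list counts include them. Genes of the ventral-leaning and dorsal-leaning comparison were named after their values were seen. Scrublet marked 348 of 9911 nuclei (3.51%) as doublets, which were kept and removed in an alternative. Alternatives changed the Slc6a3, neuron, mitochondrial and depth limits, the minimums, the fold and the thinning. Tools were numpy 2.4.6, scipy 1.17.1, pandas 2.3.3, scanpy 1.11.5 and matplotlib 3.10.9.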

Additional observations from a re-analysis of the deposited data

How the results depend on the processing

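With a neuron limit of 0.5%, which left 120 Slc6a3 neurons and 601 Slc6a3-negative neurons, the median log2 ratio of the dopamine synthesis list was 2.05 instead of 2.65, 1861 instead of 898 peaks were past 2-fold, and the log2 ratio at promoters of the synthesis and transcription factor lists was 0.93 instead of 0.74. The genes past 2-fold, 1245, became 548 with a minimum of 50 CPM, 2791 with no minimum and 436 at 4-fold. The peaks became 187 at 4-fold and 20 with a minimum of 50 FPM, where the balance turned from 656 higher and 242 lower to 3 higher and 17 lower. The share of Slc6a3 neurons with a Th UMI, 49.3%, was 19.2% when thinned to 2000 UMIs and 82.8% unthinned, and that with a Foxr2 UMI, 6.0%, was 2.65% and 15.2%. These shares follow the number of UMIs kept. The NBRE share of higher peaks outside promoters, 7.66%, was 4.18%, and the promoter share of higher peaks, 20.4%, was 16.7%, with a minimum of 5 FPM over both groups, chosen after the data were seen. Apart from the thinning and the fold or minimum, the cause was not tested. Apart from that balance of peaks, no log2 ratio changed sign where its interval excluded 0, and 82 of 109 values of groups and 100 of 126 values of single genes stayed within their error or within 1.5 times. No paired analysis was possible because Slc6a3 neurons were found in 1 library only, so no replicate could be left out either. With 812719 fragments in all Slc6a3 neurons, most single peaks rest on few fragments, and a gene at 0 UMIs can still have up to 1.08 CPM.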
